A study of Populus tremula x Populus alba with 8 samples.

Results

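A set of 100 probes on a poplar cDNA array gave ratios of opposite sign in different replicates of the same comparison, with both arrays of each replicate at either end in accord. They were 100 of the 3298 poplar probes with a value on all 8 arrays. Each array carried RNA of trees labelled UBI::PtaHB1 and RNA of trees labelled control, one labelled with Alexa Fluor 555 and the other with Alexa Fluor 647. There were 4 numbered replicates with 2 arrays each, 1 per dye orientation. The UBI::PtaHB1 trees were P. tremula × P. alba hybrids, clone INRA-717-1B4, that carried PtaHB1 behind a ubiquitin promoter, which drives expression in most cells, and the control trees carried the empty vector. The study describes 2 independent lines in each group with 2 trees per line, as 4 individual samples. The labels do not say which line or tree any replicate came from. The labels call the tissue secondary xylem, whereas the methods give primary stem for PtaHB1 profiling. No table used here pairs the probes with genes, so the tissue and the over-expressed gene itself were not checked against named transcripts and each probe is given by its identifier.

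PtaHB1 is a transcription factor of the class III homeodomain leucine zipper family (HD-Zip III). These proteins pattern vascular tissue and set the polarity of leaves and of the cambium, the layer of dividing cells from which wood and secondary phloem arise. A ubiquitin promoter does not restrict the transgene to those cells. In Arabidopsis the family member REVOLUTA acts in the formation of fibres between the vascular bundles.

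The probes were chosen by their readout. For each replicate the value nearer 0 of its 2 arrays was taken where both had the same sign, and 0 where they did not. This is called the replicate value here. The score of a probe was the smaller of its highest replicate value and minus its lowest replicate value, so that a high score needs 1 replicate clearly above 0 and another clearly below, each on both arrays. The 100 highest scores defined the set. These ratios are therefore a description of what was selected. Tests were fitted across all 3298 probes, and what they give for the chosen probes is printed as a description too. All ratios below are log2 of PtaHB1 over control as the labels and the scanner headers give the dyes. The deposited values run the other way, control over PtaHB1, on all 8 arrays. Whether the study turned them for its reported differences could not be checked, since no table used here pairs the probes with genes. Turning all 8 arrays together leaves the set as it is, since the score treats both signs alike.

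Scores ran between 0.23 and 0.84 with a median of 0.29, and 6 probes scored 0.5 or more. Over all 3298 probes the median score was 0, and 1542 probes had a score above 0. The limit was not a natural break. The last 3 probes inside it, MN5189737, MN5184940 and MN5184614, scored 0.234, 0.234 and 0.232, and the first 3 outside it, MN5183988, MN5184935 and MN5184064, scored 0.231, 0.229 and 0.229.

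Before the probes are described, the replicates themselves need a check. HPH is the hygromycin resistance gene, and hygromycin was used to select the transformed tissue. The array carried 6 HPH spots. Their log2 ratio of PtaHB1 over control was 1.61 and 3.09 in replicate 1, 1.91 and 2.96 in replicate 2, and 1.80 and 2.09 in replicate 3, but −0.10 and −0.34 in replicate 4 (PtaHB1 RNA in 555 first, then in 647). The control channel also carried HPH signal in replicates 1 to 3, with median intensities of 1178.5, 806 and 1051.5 against 579.5, 410 and 379.5 for DMSO spots on the arrays with PtaHB1 RNA in 555, and of 1061, 987 and 767 against 829, 720 and 548 on the other arrays. In replicate 4 the HPH spots had median intensities of 355.5 and 314.5 in the PtaHB1 channel, where spots of DMSO alone had 403 and 364, and of 363 and 542 in the control channel, where DMSO spots had 404 and 560. No HPH signal above DMSO spots was seen in replicate 4 in either RNA, and results are also given without this replicate. The control trees were transformed too, with the empty vector, so an HPH ratio does not tell which RNA is PtaHB1. In every replicate the RNAs are called PtaHB1 and control by the labels and scanner headers only.

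Spots of green fluorescent protein (GFP), a gene that poplar does not carry, divided the replicates in another way. The 6 NASC-GFP spots had log2 ratios of 0.39 and 0.24 in replicate 1 and 0.67 and 1.21 in replicate 2, but −1.37 and −0.53 in replicate 3 and −1.70 and −0.69 in replicate 4. The separate GFP spots printed at the corners, up to 96 per array, gave 0.12 and 0.27, 0.74 and 1.19, −1.51 and −0.54, and −1.36 and −0.81 in the same order. Both kinds were thus above 0 in replicates 1 and 2 and below 0 in replicates 3 and 4 on each array. By the rule used for the probes they would score 0.67 and 0.74, inside the range of the set. They were the only 2 of 32 kinds of control spot to reach the limit. Spots of DMSO alone, which hold no DNA, stayed between −0.14 and 0.11 on all 8 arrays, and glass without a spot between −0.14 and 0.19. On the arrays with PtaHB1 RNA in 555, the NASC-GFP spots had median intensities of 1374.5, 1561, 916.5 and 564.5 in the PtaHB1 channel of replicates 1 to 4, and of 1130, 865.5, 2523 and 2086.5 in the control channel. On the arrays with PtaHB1 RNA in 647 they were 1842.5, 2208.5, 713 and 579 in the PtaHB1 channel, and 1756.5, 1263.5, 1150 and 1100 in the control channel, where DMSO spots had 829, 720, 548 and 560. In these raw values the PtaHB1 channel was dimmer in replicates 3 and 4 in both orientations. The control channel was brighter there only with PtaHB1 RNA in 555. DMSO spots in the PtaHB1 channel were dimmer there as well. They had 748, 600, 425.5 and 403 with PtaHB1 RNA in 555, and 769.5, 613, 436 and 364 with it in 647. Raw intensities therefore do not compare GFP signal alone between replicates. Where the GFP signal comes from, and its part in the ratios of the probes, was not tested.

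**Figure D1:**
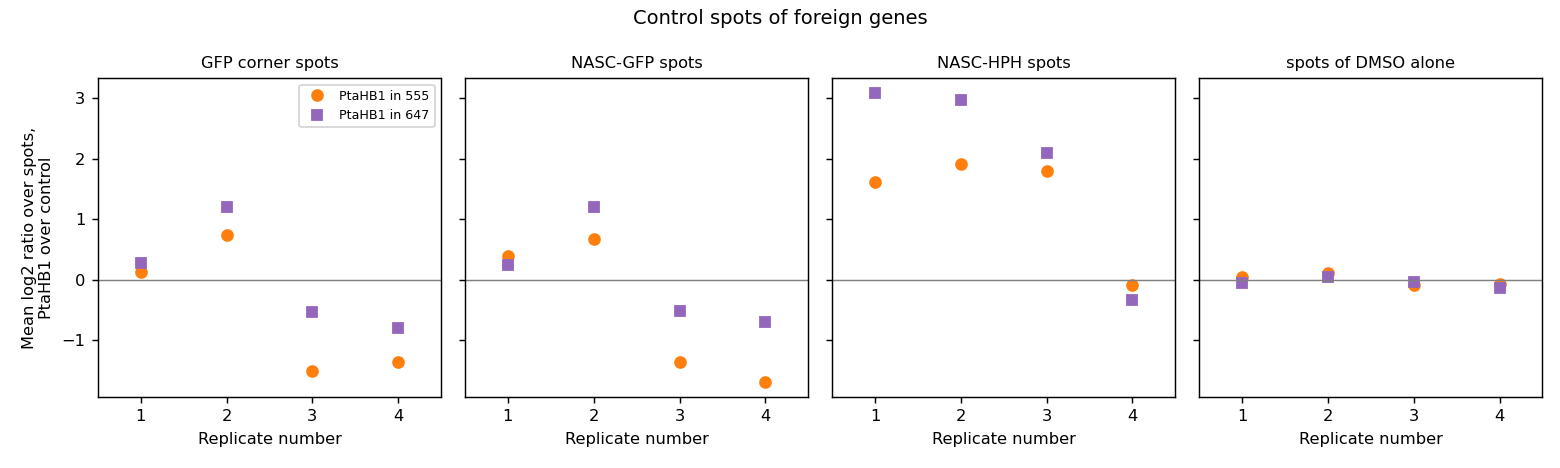
Mean log2 ratio of PtaHB1 over control (vertical axis) of 4 kinds of control spot in replicates 1 to 4 (horizontal axis), with the array of PtaHB1 RNA in Alexa Fluor 555 as circles and the array of PtaHB1 RNA in 647 as squares. GFP spots lie above 0 in replicates 1 and 2 and below 0 in replicates 3 and 4, HPH spots lie between 1.61 and 3.09 in replicates 1 to 3 and near 0 in replicate 4, and spots of DMSO alone stay between −0.14 and 0.11.

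Replicates 2 and 4 most often held the ends. They were the highest and the lowest replicate, in either order, for 38 of the 100 probes (38%). This is a count over chosen probes, which are not independent. Replicates 1 and 2 did so for 3 probes. Of the 38, 27 were highest in replicate 4 and lowest in replicate 2, and 11 the other way round. The remaining pairs held 12 to 18 probes each, namely 16 for replicates 1 and 3, 12 for 1 and 4, 13 for 2 and 3, and 18 for 3 and 4. Replicate 4 stood at an end for 68 probes, replicate 2 for 54, replicate 3 for 47 and replicate 1 for 31. The same pair led among all 1542 probes with a score above 0, where replicates 2 and 4 held the ends for 25.1% and replicates 1 and 2 for 10.2%.

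**Figure D2:**
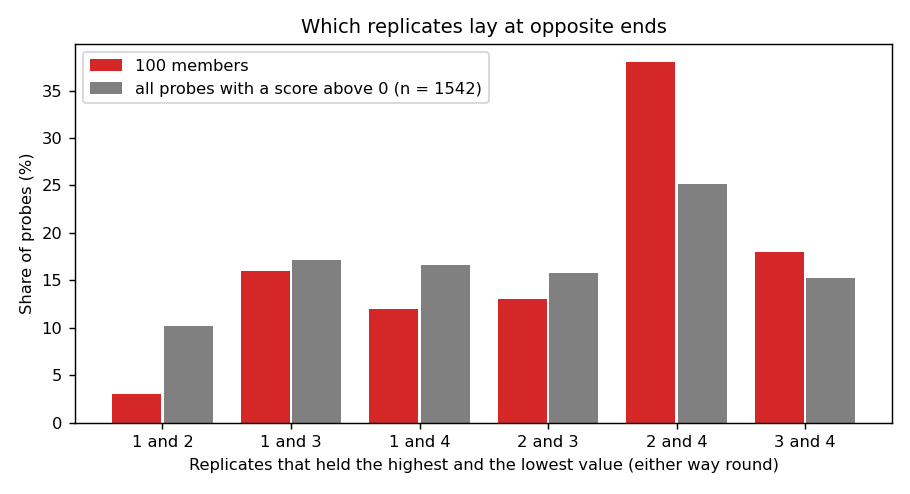
Share of probes, in percent (vertical axis), for which each pair of replicates (horizontal axis) held the highest and the lowest replicate value, in either order, for the 100 chosen probes in red and all 1542 probes with a score above 0 in grey. Replicates 2 and 4 hold 38% of the chosen probes and 25.1% of all with a score above 0, and replicates 1 and 2 hold 3% and 10.2%.

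The signs of the replicate values were counted for each pair of replicates, and the excess of opposite signs in the chosen probes follows from the rule. Replicates 1 and 2 had the same sign in 52 probes and opposite signs in 21, against 666 and 366 of all 3298 probes. Replicates 2 and 4 had the same sign in 10 and opposite signs in 68, against 472 and 676 of all. Replicates 1 and 4 had the same sign in 18 and opposite signs in 54, against 417 and 594 of all. These 3 pairs leaned the same way in the set and on the whole array. Replicates 3 and 4 did not, with 27 alike and 48 opposite in the set against 688 and 497 of all. Replicates 1 and 3 were alike in 22 and opposite in 49, against an even 534 and 540 of all. Replicates 2 and 3 also leaned the same way in the set and on the whole array, alike in 42 and opposite in 34, against 791 and 463 of all. In the remaining probes of each pair at least 1 replicate value was 0.

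**Figure D3:**
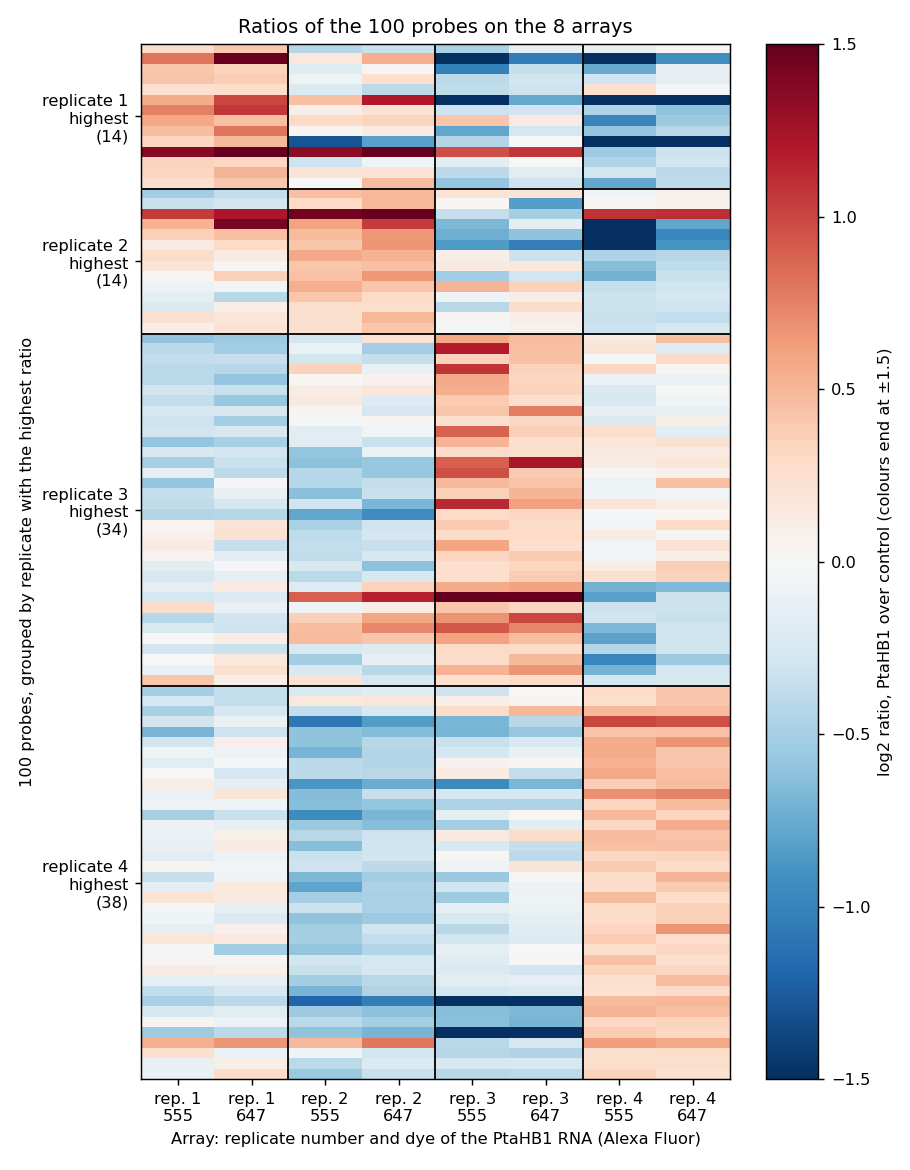
Log2 ratio of PtaHB1 over control (colour, ending at ±1.5) of the 100 probes (rows, grouped by the replicate with the highest value) on the 8 arrays (columns, by replicate and by the dye of the PtaHB1 RNA). Neighbouring columns of a replicate share their colours in most rows, and 14, 14, 34 and 38 probes were highest in replicates 1, 2, 3 and 4.

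A replicate value other than 0 in all 4 replicates was found in 53 of the 100 probes, against 459 of all 3298 probes (13.9%). Such a value needs only the same sign on both arrays and may lie near 0. All 7 possible divisions of the replicates occurred among these 53. Replicate 4 stood alone against replicates 1, 2 and 3 in 18 of them, and replicates 1 and 2 stood against 3 and 4 in another 18. Replicates 1 and 4 stood against 2 and 3 in 9, replicate 3 stood alone in 4, and replicate 1 stood alone in 2. Of the final 2 probes, 1 had replicate 2 alone and 1 had replicates 1 and 3 against 2 and 4. In the latter, MN5190283, the value of replicate 1 was only 0.007. Among the 383 probes of the whole array with a sign in all 4 replicates and both signs present, the leading 2 divisions were the same, with 112 and 78 probes. With probes that had a replicate value of 0 counted as well, 34 different sign patterns occurred, 18 of them in 2 probes or more.

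The probe with the highest score belonged to the group in which replicate 4 stood alone. MN5183321 had ratios of −0.28 and −0.09 in replicate 1, −1.08 and −0.84 in replicate 2, −0.68 and −0.41 in replicate 3, and 1.00 and 0.96 in replicate 4. Only replicate 4 lay above 0, on both arrays. MN5188483 behaved alike, with −0.49 and −0.40, −1.19 and −1.04, −1.96 and −1.60, and 0.48 and 0.49 in replicates 1 to 4. Its replicate 3 lay lowest. In all, 13 probes were above 0 in replicate 4 alone, with median replicate means of −0.19, −0.59, −0.34 and 0.40. The opposite sign was held by 5 probes, above 0 in replicates 1 to 3 and below in replicate 4. MN5189538 led these, with 0.58 and 0.45, 0.30 and 0.34, 0.42 and 0.13, and −0.99 and −0.55. The next of them, MN5185562, had 0.19 and 0.02, 0.42 and 0.45, 0.13 and 0.15, and −0.64 and −0.38. A further 10 probes were below 0 in replicates 2 and 3 and above 0 in replicate 4, with 0 in replicate 1. MN5186724 and MN5187796 led them, at 0.55 and 0.68, and at 0.37 and 0.46, in replicate 4.

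HPH had its 3 high replicates against replicate 4 too, but its ratio in replicate 4 was near 0 and both channels were at the level of DMSO spots, so its score of 0.0962 lay below the limit. All 5 probes below 0 in replicate 4 alone had a ratio of −0.35 or lower there as the mean of both arrays.

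Of the 10 highest scores, 5 belonged to probes above 0 in replicates 1 and 2 and below 0 in replicates 3 and 4, the division that the GFP spots showed. MN5189064 had 0.80 and 1.58 in replicate 1, 0.16 and 0.54 in replicate 2, −2.32 and −1.04 in replicate 3, and −1.81 and −0.92 in replicate 4. MN5189682 had 0.52 and 1.42, 0.60 and 1.05, −0.67 and −0.14, and −2.89 and −0.78. MN5189799 had 0.56 and 1.00, 0.45 and 1.20, −1.67 and −0.77, and −3.44 and −1.65, and the largest SD over replicate means among the 100 probes, 1.64 (n = 4). In these 3 probes the array with PtaHB1 RNA in 555 read lower than its partner in every replicate, by up to 2.11 in replicate 4 of MN5189682, so the sizes are less certain than the signs. MN5187610 had 0.36 and 0.45, 0.47 and 0.65, −0.73 and −0.61, and −1.55 and −0.98. MN5185364 had 0.76 and 1.07, 0.09 and 0.22, −0.32 and −0.29, and −0.47 and −0.60. In all, 9 probes shared this pattern.

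The reverse pattern, below 0 in replicates 1 and 2 and above 0 in replicates 3 and 4, was held by 9 probes as well, with smaller sizes. Their median replicate means were −0.27, −0.42, 0.37 and 0.20 in replicates 1 to 4, against 0.63, 0.54, −0.52 and −1.22 in the 9 probes of the other sign. MN5184481 led them with −0.49 and −0.33, −0.62 and −0.57, 0.90 and 1.22, and 0.12 and 0.19. MN5187613 followed with −0.17 and −0.03, −0.40 and −0.44, 0.07 and 0.03, and 0.52 and 0.41. The first was highest in replicate 3 and the second in replicate 4. Both orientations of this division were therefore present among the probes, whereas the GFP spots had only one.

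**Figure D4:**
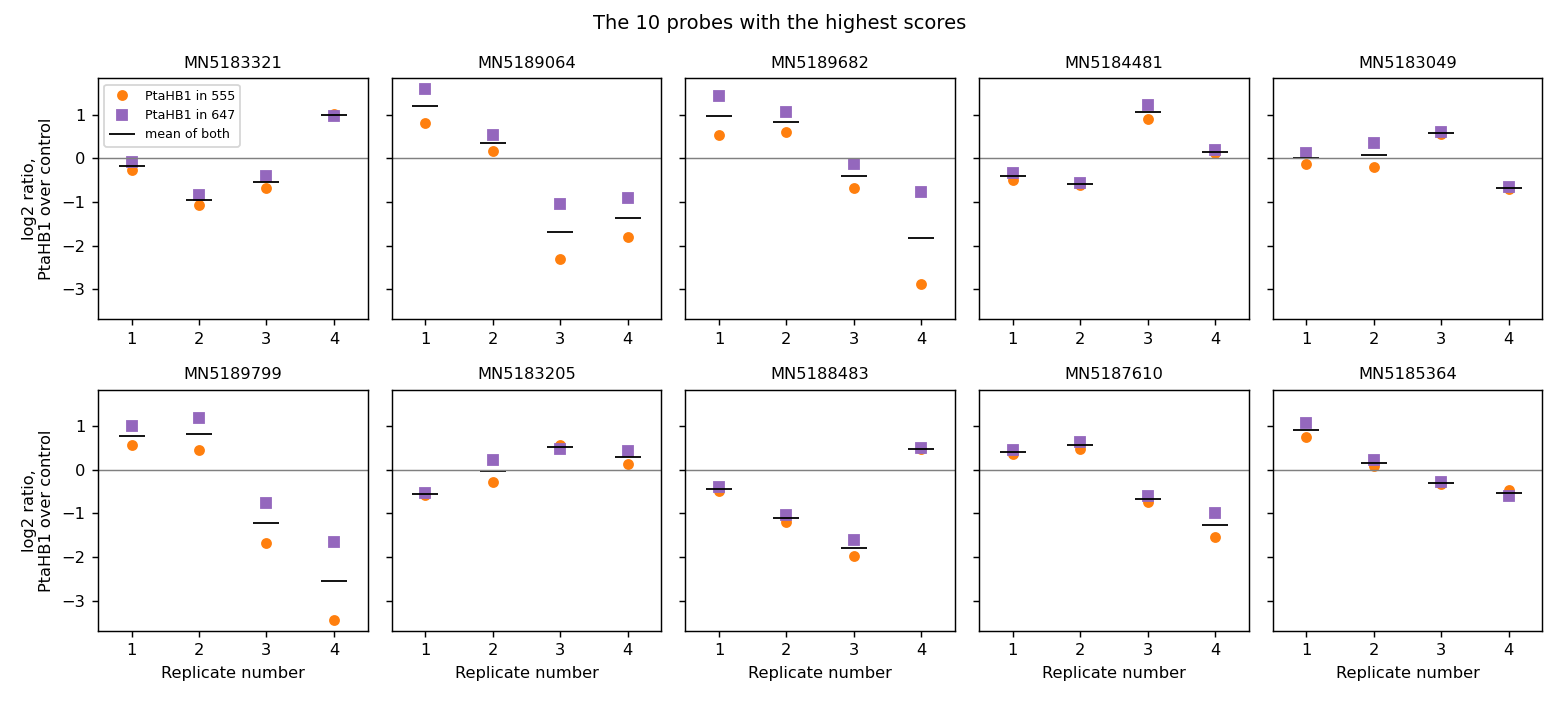
Log2 ratio of PtaHB1 over control (vertical axis) in replicates 1 to 4 (horizontal axis) for the 10 probes with the highest scores, with the array of PtaHB1 RNA in Alexa Fluor 555 as circles, the array of PtaHB1 RNA in 647 as squares and their mean as a bar. MN5183321 and MN5188483 lie above 0 in replicate 4 alone, and MN5189064, MN5189682, MN5189799, MN5187610 and MN5185364 lie above 0 in replicates 1 and 2 and below 0 in replicates 3 and 4.

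Other divisions were smaller. Replicates 2 and 3 were above 0 and replicates 1 and 4 below in 6 probes, and the reverse held in 3. MN5183135 had the widest span of these 6, with −0.26 and −0.21 in replicate 1, 0.89 and 1.15 in replicate 2, 2.07 and 2.25 in replicate 3, and −0.82 and −0.32 in replicate 4. MN5185073, of the same pattern, stayed within −0.59 and 0.57 on all arrays. MN5188927 and MN5184902, of the reverse pattern, reached 0.47 and 0.38 in replicate 4 and −0.51 and −0.50 in replicate 2 on the arrays with PtaHB1 RNA in 555. Replicate 3 alone was below 0 in 2 probes, and MN5189709 had 1.05 and 1.21, 1.45 and 1.90, −0.35 and −0.50, and 1.08 and 1.10 in replicates 1 to 4. MN5187729 was the other, at −0.42 and −0.25 in replicate 3 against 0.49 to 0.80 on the 6 arrays of the other replicates. Replicate 3 alone was above 0 in MN5187797 and MN5185189, at 0.36 and 0.50 and at 0.30 and 0.27.

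Some high scores came from 2 replicates with the others near 0 or unsettled. MN5183049 had 0.56 and 0.60 in replicate 3 and −0.71 and −0.66 in replicate 4, while replicate 1 gave −0.14 and 0.13 and replicate 2 gave −0.20 and 0.35. The other probe of this pattern, MN5187184, had 0.42 and 0.32 against −0.31 and −0.32. MN5183205 was −0.59 and −0.54 in replicate 1, −0.27 and 0.22 in replicate 2, 0.58 and 0.48 in replicate 3, and 0.13 and 0.44 in replicate 4. MN5189217 shared its pattern. The remaining patterns held by 2 probes or more each had a replicate value of 0 in 1 or 2 replicates. MN5183045 and MN5188426 led 5 probes below 0 in replicates 1 and 2 and above in replicate 4. MN5189242 and MN5188108 led 5 probes below 0 in replicates 1 and 2 and above in replicate 3. MN5188447 and MN5190163 led 3 probes above 0 in replicate 1 and below in replicates 3 and 4. MN5185964 with MN5187899, MN5185748 with MN5187442, MN5183683 with MN5190189, and MN5185222 with MN5187531 formed pairs of other patterns.

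The 2 labelled RNAs were read separately to see in which of them the probes moved. These levels are log2 intensities after normalization between arrays, averaged over both dye orientations. Between the lowest and the highest replicate the level in PtaHB1 RNA was higher by a median of 0.58 and the level in control RNA differed by a median of −0.39. The PtaHB1 level was higher in the highest replicate for 92 probes, the control level was lower there for 84, and both held for 76. Both directions follow from the choice of the highest and the lowest ratio. The difference was larger in PtaHB1 RNA for 61 probes and in control RNA for 39, against 800 and 741 among the 1541 probes with a score above 0 and a level in both. The SD over replicates was larger in PtaHB1 RNA for 63 of the 100 probes, against 51.9% of all probes. Its median was 0.37 in PtaHB1 RNA and 0.32 in control RNA for the 100 probes, and 0.25 and 0.24 for all probes. A wider spread in either RNA follows from choosing probes whose ratio differed between replicates on these arrays.

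Single probes differed in this respect. MN5183321 had levels of 9.63, 10.09, 9.71 and 11.28 in PtaHB1 RNA of replicates 1 to 4, and of 9.82, 11.29, 10.38 and 10.31 in control RNA. Its high ratio in replicate 4 went with the highest PtaHB1 level, and its low ratio in replicate 2 with the highest control level. MN5189064 had 11.92, 11.81, 9.18 and 8.38 in PtaHB1 RNA and 10.74, 11.39, 11.20 and 10.03 in control RNA. Its division of the replicates lay mostly in PtaHB1 RNA, where both pairs were more than 2 apart. MN5187610 had 13.46, 13.90, 12.53 and 12.06 in PtaHB1 RNA and between 13.07 and 13.31 in control RNA, and so moved in PtaHB1 RNA with control RNA nearly level. MN5184481 had 10.12, 10.23, 10.93 and 9.50 in PtaHB1 RNA and 10.56, 10.94, 9.67 and 9.34 in control RNA. Here control RNA was lower in replicates 3 and 4 than in replicates 1 and 2, and PtaHB1 RNA was highest in replicate 3 and lowest in replicate 4.

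**Figure D5:**
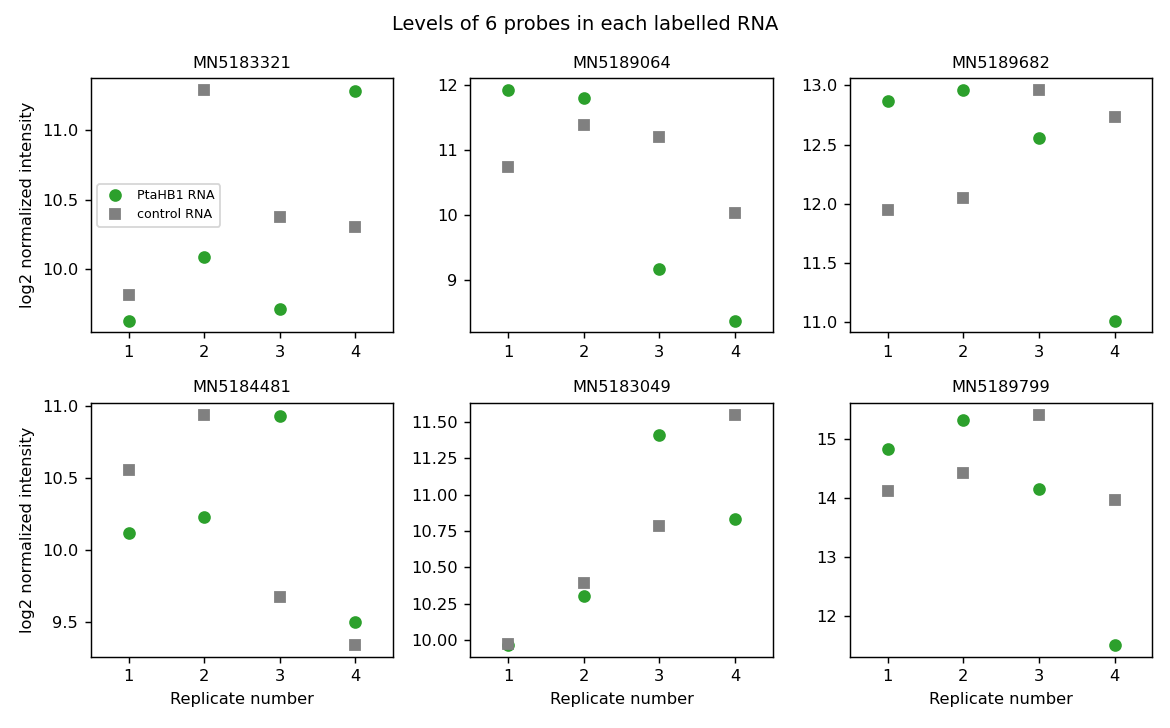
Log2 normalized intensity (vertical axis, a separate scale in each panel) in PtaHB1 RNA (green circles) and control RNA (grey squares) of replicates 1 to 4 (horizontal axis) for the 6 probes with the highest scores, each point the mean of both dye orientations. MN5189064 is at 11.92 and 11.81 in PtaHB1 RNA of replicates 1 and 2 and at 9.18 and 8.38 in replicates 3 and 4.

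The probes were brighter than most. Their median log2 brightness was 11.0, against 10.2 for all probes, and 45 of them were among the 825 brightest. All but MN5190138 exceeded the 95th percentile of spots without DNA, against 2703 of 3298 probes (82.0%). The dimmest were MN5190138 and MN5187184 at 9.22 and 9.51, and the brightest MN5186380 and MN5190283 at 15.2. The 2 spots of a probe differed by a median of 0.19 for the 100 probes and 0.26 for all. In 90 of the 100 probes every measured spot was above 0 in the highest replicate and below 0 in the lowest, on both arrays. This follows largely from the rule, which used values from the same spots, and it was not counted over all probes. A spot marked by the image software was found on some array for 7 of the 100 probes and 4.4% of all, and a saturated spot for 4 (MN5189799, MN5190342, MN5190283 and MN5186380) and 0.394% of all. The 100 probes lay in all 24 print-tip groups, with 1 to 9 in each, and 2 pairs of them were printed side by side. Of the 100 brightest probes on the array, 6 were in the set.

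Selection on the arrays of one orientation could be read on the arrays of the other, which that selection did not use. It gave other groups of 100 probes. They shared 55 with the set when chosen with PtaHB1 RNA in 555, and 41 when chosen with it in 647. The 100 probes with the highest scores on the 4 arrays with PtaHB1 RNA in 555 had a median span of 1.04 between their highest and lowest replicate there and of 0.73 between the same replicates on the arrays with PtaHB1 RNA in 647. The direction was kept in 96 of 100, against 74.2% of the 2538 probes with both signs, and both ends kept their sign in 86, against 43.1%. In the other direction the span was 0.99 and 0.80. The direction was kept in 96, against 74.8% of the 2528 probes with both signs, and both ends kept their sign in 69, against 43.1%. The probes with both signs had smaller spans, with a median of 0.42 on the chosen arrays in either direction. Arrays with the same number share their 2 RNAs as far as the design shows, so this compares dye orientations and not trees. Over all probes both arrays had the same sign in 51.1% of probes in replicate 1, 58.9% in replicate 2, 60.1% in replicate 3 and 56.2% in replicate 4, and their ratios correlated with r = 0.07, 0.48, 0.48 and 0.39 across probes, which are not independent replicates. Replicate 1 was the least repeatable between dyes.

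A limma F-test across the 4 replicates, with dye orientation as a covariate, called 532 of 3298 probes at an adjusted p under 0.05, a background of 16.1%. The count was 106 with normexp and composite normalization, 126 with print-tip loess, 74 with no dye term, and 303, 302 and 319 without replicate 2, 3 or 4. The fit with 532 calls included 98 of the 100 probes, all but MN5186380 (adjusted p = 0.103) and MN5186984 (adjusted p = 0.0617). Since the set was chosen on the same ratios, nothing is read from its count. The spread in this test is that between both arrays of a replicate and may be technical, so a call says that replicates differed by more than their arrays did. Between single replicates the counts over all probes followed the order seen in the set. Replicates 2 and 4 differed in 12.9% of probes, replicates 3 and 4 in 7.94%, replicates 1 and 3 in 7.06%, replicates 2 and 3 in 5.97%, replicates 1 and 4 in 5.09%, and replicates 1 and 2 in 1.82%. Of the 100 probes, 73, 55, 50, 44, 46 and 18 passed in the same order.

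The mean of the 4 replicates is what a genotype comparison rests on. It was near 0 for most of the set, as for most probes of the array. Its median size without sign was 0.07, against 0.06 for all probes. The median SD over the 4 replicates was 0.40, against 0.14 for all probes. The wider SD follows from choosing probes whose replicates had opposite signs. The mean of PtaHB1 over control was above 0 for 38 of the 100 probes, against 49.4% of all. Opposite signs, which the rule selected, also leave few probes of the set to be called for genotype. The study used another method, SAM, and reported transcripts that differed between the genotypes. Here limma on the 4 replicate means called 0 of 3298 probes (background 0%) and 0 of the 100, with 245 and 4 at an unadjusted p under 0.05. Those 4 were MN5190282 with a mean of 0.91, MN5189709 with 0.87, MN5187729 with 0.38 and MN5188483 with −0.71. Each was adjusted p = 0.587 or 0.659 by limma. MN5189709 and MN5187729 were above 0 in replicates 1, 2 and 4 and below 0 in replicate 3 alone.

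Scan session ran partly along the replicates. Both arrays of replicate 1 were scanned in session 1, those of replicates 3 and 4 in session 2, and those of replicate 2 in sessions 2 and 3. Within session 2, replicates 3 and 4 had opposite replicate values in 48 of the 100 probes, against 15.1% of all probes. Opposite values were what the rule selected, so the excess over all probes is fixed by the choice and says nothing of the session. On the arrays with PtaHB1 RNA in 555 of that session, replicates 2 and 4 had opposite signs in 76 probes, against 47.9% of all, and replicates 2 and 3 in 43, against 38.8%. Replicate 1 had no array in a session with another replicate, so replicate 1 and session 1 cannot be told apart.

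The set depended on replicate 4 more than on any other. With replicates 1 to 3 alone, 44 of the 100 probes still reached the limit and 60 kept a score above 0. Without replicate 1, 2 or 3, 74, 60 and 64 still reached it. Turning the sign of both arrays of 1 replicate, as an exchange of its 2 labels would, changed how many probes of the array reached the same limit. The count was 118 with replicate 1 turned, 176 with replicate 2, 184 with replicate 3 and 99 with replicate 4, against 100 as labelled. With 2 replicates turned it was 137 for replicates 1 and 2, 216 for 1 and 3, and 124 for 1 and 4. The count with replicate 4 turned was 1 below that as labelled, and each of the other turns gave more. In that turn 44 of the 100 probes remained at the limit. Replicate means correlated across all probes with r = 0.29 for replicates 1 and 2, 0.33 for 2 and 3 and 0.21 for 3 and 4, and with −0.05 for 1 and 3, −0.09 for 2 and 4 and −0.16 for 1 and 4. On arrays of one dye orientation every pair of replicates correlated above 0, between 0.05 and 0.43, and these arrays also share any effect of the dyes.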

How the data were processed

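The authors scanned each array in both channels, took spot medians, subtracted the local background, applied a composite normalization and deposited log2 ratios for all 8 arrays, which were used as the main values. The deposited scanner files hold intensities per spot and channel, and were read for levels, spot agreement, control spots and alternative ratios. Signs were turned so that ratios are PtaHB1 over control, from the dyes in the labels and scanner headers. Re-made ratios (plain subtraction and composite normalization) correlated with the deposited ones at −0.995 or beyond before turning. Because the number of arrays limits precision, 4 replicates allow little power for a genotype difference. Levels used normexp with an offset of 50, composite normalization (loess span 0.4) and Aquantile in limma 3.58.1 (R 4.3.3). Control spots were given by plain subtraction. Tests were limma's moderated F across replicates with dye orientation, its pairwise contrasts, and the 4 replicate means against 0, with Benjamini-Hochberg adjustment over 3298 probes. Fits were tested on simulated data with independent noise on each array and no difference between replicates except shifts put in. Such data lack the differences between replicates seen here, so they do not show how the genotype test behaves on these arrays. The rule was run in Python 3.11.15.

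The members and the rules for naming were chosen with earlier results of these data known. Named were the 10 highest scores, the 2 highest of each sign pattern held by 2 or more, 3 on either side of the limit, the 2 brightest and 2 dimmest, and control spots that bore on a replicate. A few others were named for a count of 5 or fewer after their values were seen. The study describes separate trees of 2 lines in each group, but the labels tie no replicate to a tree or line. The p-values measure only the spread between these samples, which may be technical. The numbers were checked as a pairing of the dye orientations, on deviations from the mean of each orientation. Deviations of arrays with the same number correlated with r = 0.45 to 0.64 and of different numbers with r = −0.50 to 0.12. Taking off that mean pushes the correlations of different numbers below 0. Without it, both arrays of replicate 1 correlated with r = 0.07, and arrays of different numbers with up to 0.15. The pairing of replicate 1 is therefore not settled by this check. Both arrays of a number were treated as 1 replicate by the numbers in the labels.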

Additional observations from a re-analysis of the deposited data

Results flagged for a closer look

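In 2 of 51 named probes and control spots, 1 of the 4 replicate means lay far from the other 3, by a measure that chance passes in about 1 in 20 groups. MN5187729 had a mean of −0.33 in replicate 3 and of 0.59 to 0.64 in the others (gap of 0.9504 of the range). MN5190189 had 0.59 in replicate 3 and −0.25 to −0.11 in the others (gap of 0.833 of the range). Both were chosen for having opposite replicates, so that chance rate does not hold for them and nothing is read from the count.

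Control spots of foreign genes, which no comparison uses, gave signal above spots of DMSO alone. The brightest median of NASC-HPH over DMSO spots was 9.58-fold and the dimmest 0.864-fold. For NASC-GFP it was 6.65-fold and 1.40-fold, and for the GFP corner spots 3.34-fold and 1.12-fold. Their ratios by replicate are given with the description of the replicates.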

How the results depend on the processing

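Of the 100 probes, 85 were shared when ratios were re-made by plain subtraction and composite normalization, 71 with the mean of both arrays, 100 with all 8 signs turned, 100 among 200 chosen and 99 without dim probes. Fewer were shared with normexp and composite normalization (63), print-tip loess (62) or median centring (57), with arrays of PtaHB1 RNA in 555 alone (55) or in 647 alone (41), and with 50 chosen (50). The counts with all 8 signs turned and with 50 or 200 chosen were fixed in advance by the rule. Turning replicate 1, 2, 3 or 4 left 66, 36, 35 and 44, and turning replicates 1 and 2, 1 and 3, or 1 and 4, chosen after seeing the data, left 23, 39 and 32. Leaving out a replicate left 49 to 74, the lowest without replicate 4. The share with replicates 2 and 4 at the ends was 30 to 42% under the other alternatives (36% with replicate 1 turned), but 12, 12 and 19% with replicate 2, 3 or 4 turned, 10, 10 and 14% with the pairs turned, and 57 to 71% without replicate 1 or 3, by construction from fewer pairs. It has no value without replicate 2 or 4. The F-test called 532 probes, and 642 and 604 with plain subtraction and without dim probes, but 106 with normexp and composite normalization, 126 with print-tip loess and 74 with no dye term. The cause was not tested. Without a replicate it called 302 to 591 (303 without replicate 2, 302 without 3, 319 without 4). The genotype test called 0 to 2 probes without a replicate (2 without replicate 3, 1 without replicate 4), 2 with scan session as a random block, and 0 elsewhere. With the replicate block over 8 arrays it called 0, and with no replicate block 0. The SD was larger in PtaHB1 RNA for 65 and 62 probes with median scaling and with plain subtraction. Of 216 scores of the 10 leading probes, 46 moved by more than the spread of their arrays. The 216 include settings in which these scores could not change, namely all 8 signs turned, 50 or 200 chosen, and no dim probes.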
